A study of Mus musculus with 8 samples.

Results

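Genes of 9 secreted defence proteins were followed through 8 RNA sequencing libraries of the mouse submandibular gland, a major salivary gland. They are Lpo, Wfdc2, Lcn2, Slpi, S100a8, S100a9, Ltf, Saa3 and Reg3g, taken by gene symbol as a group of antimicrobial and acute phase products, out of 54838 genes in the deposited tables. Of the libraries, 4 were from male Dp16 mice and 4 from male wild-type (WT) mice. Dp16 mice, stock B6.129S7-Dp(16Lipi-Zbtb21)1Yey/J, carry in all cells a duplication of the stretch of chromosome 16 between Lipi and Zbtb21 and are a model of Down syndrome, so the genes of that stretch are present in an extra copy. WT mice were C57BL/6J, which the strain label also gives for the Dp16 samples. Glands were cleaned of connective and fat tissue around them, and no treatment is named for either group. Neither the ages nor whether a library held 1 animal is stated by the labels, so p-values measure the spread between these libraries. None of the 9 genes lies in the duplicated stretch: on GRCm38 they are on chromosomes 2 (Lcn2, Slpi and Wfdc2), 3 (S100a8 and S100a9), 6 (Reg3g), 7 (Saa3), 9 (Ltf) and 11 (Lpo).

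Saliva carries proteins that hold back microbes, and they work in different ways. Lactoferrin (Ltf) binds iron and lipocalin 2 (Lcn2) binds bacterial siderophores, the carriers by which bacteria collect iron. Lactoperoxidase (Lpo) turns thiocyanate and hydrogen peroxide into an antibacterial oxidant, with the peroxide supplied by the dual oxidases Duox1 and Duox2. Slpi and Wfdc2 are small proteins with whey acidic protein domains. Slpi inhibits neutrophil elastase and cathepsin G. S100a8 and S100a9 form calprotectin, which binds zinc and manganese and makes up much of the protein of neutrophil cytosol. Reg3g is a lectin that kills Gram-positive bacteria in the mouse gut, and Saa3 is a serum amyloid A made outside the liver in inflammation. Some of these proteins are made steadily by gland epithelium, and others (Lcn2, Saa3, S100a8 and S100a9) are known to be induced by inflammatory cytokines through the NF-kappaB and C/EBP transcription factors.

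The libraries held 90790542 to 115729892 reads in genes. Levels are given as CPM, the reads of a gene relative to the sequencing depth of its library, scaled between libraries by the trimmed mean of M values (TMM). Rows that name no gene took 58.1% to 65.4% of all reads. Reads that overlap no counted feature took 18.4% to 20.8% in Dp16 and 13.8% to 15.9% in WT, and the part of this shift in the results below was not tested. Of 9 acinar markers the secretory product Mucl2 was the most abundant, at 210300 to 285200 CPM in Dp16 and 234400 to 334000 CPM in WT. Of the 8 that passed the filter 7 had a negative log2 fold change and 0 were called by edgeR or limma-voom, but DESeq2 called the water channel gene Aqp5 and the secretory cell factor Bhlha15 lower, in groups that did not overlap (log2 fold changes -0.66 and -0.83, edgeR adjusted p = 0.0589 for both, DESeq2 adjusted p = 0.000542 and 0.000252). Over all genes, DESeq2 called 4.37% lower, and in 6.96% of the genes tested the groups did not overlap with Dp16 lower. The part of these acinar gene levels in the levels of the defence genes was not tested.

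The defence genes spanned a wide range. Per kilobase of the principal transcript, the order of the median level over the 8 libraries was Lpo (187 CPM per kb), Wfdc2 (44.2), Lcn2 (15.6), Slpi (4.65), S100a9 (0.393), S100a8 (0.339), Saa3 (0.136), Ltf (0.076) and Reg3g (0). The ranges over libraries of Lpo, Wfdc2 and Slpi did not touch each other: the level per kb was 133 to 272 in Dp16 and 147 to 247 in WT for Lpo, 33.7 to 69.2 in Dp16 and 31.5 to 57.7 in WT for Wfdc2, and 3.03 to 6.54 in Dp16 and 2.55 to 5.95 in WT for Slpi. Lcn2 had 10.7 to 106 CPM per kb in Dp16 and 12 to 51 in WT, so its range covered that of Wfdc2. The ranges of S100a9, S100a8, Saa3 and Ltf overlapped, and these 4 genes cannot be put in order beyond their spread. They reached the range of Slpi in Dp16 replicate 3 only. With the length of all annotated exons in place of the principal transcript, Saa3 and Ltf changed places and the other 7 kept theirs.

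By edgeR, 0 of the 9 genes were called higher or lower in Dp16 at an adjusted p below 0.05, where 0.625% of the 19358 genes tested were called (0.470% higher and 0.155% lower). DESeq2 called 0 as well, where it called 5.89% of its genes higher and 4.37% lower, and limma-voom called 0, against 2.05% of all genes. Of the 9, 7 passed the filter on low counts, and 1 of them, Ltf, was below 0.05 before adjustment by edgeR, as were 24.6% of all genes tested. Groups overlapped in all 9 genes, while in 14.1% of the genes tested they did not overlap, with Dp16 higher in 7.11% and lower in 6.96%. What the genes differed in was their spread among libraries: Lpo, Wfdc2 and Slpi varied by about as much in Dp16 as in WT, and Lcn2, Ltf, S100a8, S100a9 and Saa3 were far higher in a single Dp16 library, replicate 3, than in the other 3.

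**Figure D1:**
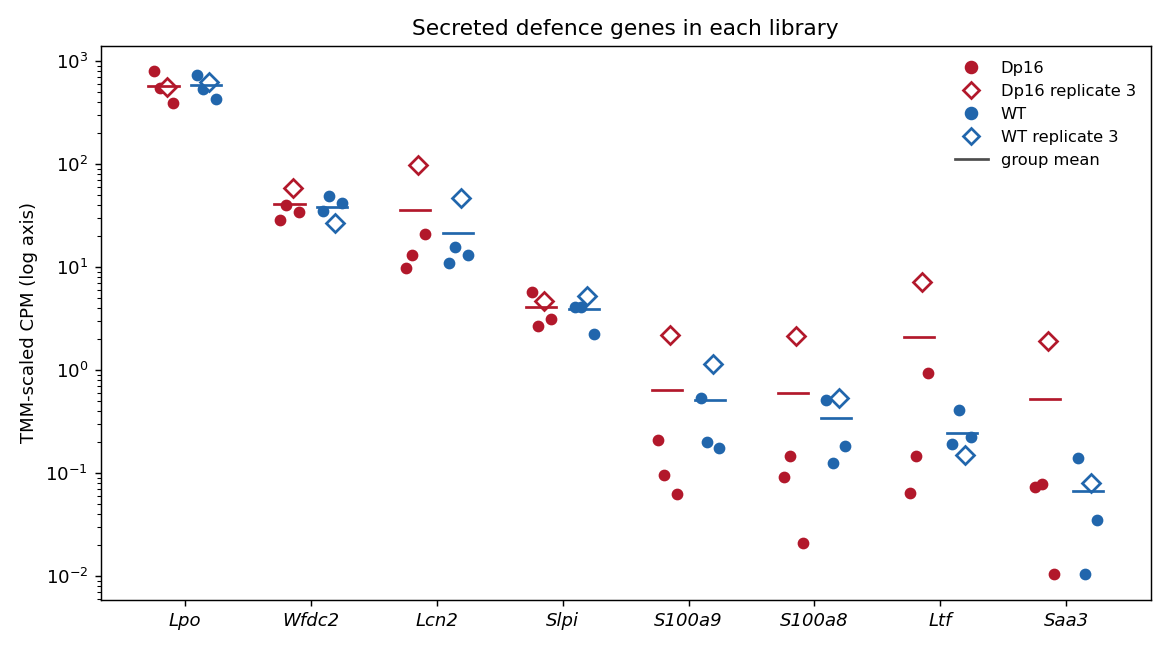
TMM-scaled CPM on a log axis of 8 secreted defence genes in each of the 4 Dp16 (red, left) and 4 WT (blue, right) libraries, with the replicate 3 libraries as open diamonds and group means as lines; Reg3g, with 1 read in all, is not drawn. Points of Lpo, Wfdc2 and Slpi lie close together, whereas Dp16 replicate 3 stands above the other 7 libraries in Lcn2, S100a9, S100a8, Ltf and Saa3.

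Of the 3 genes in which no single library stood far above its group, Lpo had the highest level. Lpo (chromosome 11, 87806428 to 87828289) had 795, 541, 554 and 390.2 CPM in Dp16 replicates 1 to 4, against 724, 531, 627 and 429 CPM in WT replicates 1 to 4. The groups lay on top of each other, and replicate 4 was the lowest library of both. The means were 570 ± 167 CPM in Dp16 and 578 ± 126 CPM in WT (SD, n = 4 each). The log2 fold change was -0.02 (SE 0.226, edgeR adjusted p = 0.967), with a 95% interval of -0.53 to 0.49.

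Wfdc2 (chromosome 2, 164562413 to 164568510) had 28.6, 39.9, 58.7 and 34.3 CPM in Dp16, against 35.1, 49.0, 26.7 and 41.5 CPM in WT. Its highest library was Dp16 replicate 3 and its lowest WT replicate 3. The log2 fold change was 0.09 (SE 0.238, 95% interval -0.45 to 0.62, edgeR adjusted p = 0.846). Slpi (chromosome 2, 164354070 to 164389095) had 5.73, 2.65, 4.70 and 3.12 CPM in Dp16, against 4.08, 4.07, 5.22 and 2.23 CPM in WT. The ranges of the groups overlapped for most of their length. The log2 fold change was 0.06 (SE 0.30, 95% interval -0.62 to 0.73, edgeR adjusted p = 0.926). For these 3 genes the interval bounds farthest from 0 were -0.53 (Lpo), 0.62 (Wfdc2) and 0.73 (Slpi). With 4 libraries a group, changes inside the 95% intervals were not excluded. Their highest library exceeded their lowest by 2.04 times (Lpo), 2.05 times (Wfdc2) and 2.16 times (Slpi) in Dp16 and by 1.69, 1.83 and 2.34 times in WT, more than the median over all genes tested of 1.45 times in Dp16 and 1.40 times in WT.

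Lcn2 was the most abundant of the genes that varied. Lcn2 (chromosome 2, 32384633 to 32388252) had 9.83, 13.1, 97.3 and 20.9 CPM in Dp16 replicates 1 to 4, against 11, 15.5, 46.6 and 13.1 CPM in WT replicates 1 to 4. In each group 1 library, replicate 3, stood above the others, and the other 6 libraries lay between 9.83 and 20.9 CPM. The means were 35.3 ± 41.6 CPM in Dp16 and 21.6 ± 16.8 CPM in WT (SD, n = 4 each), with a log2 fold change of 0.71 (SE 0.753, 95% interval -0.98 to 2.41, edgeR adjusted p = 0.578). Without Dp16 replicate 3 the log2 fold change was -0.56 (edgeR adjusted p = 0.58), the opposite direction, and with both replicate 3 libraries left out it was 0.15 (edgeR adjusted p = 0.802).

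The 2 subunits of calprotectin had like patterns. S100a8 (chromosome 3, 90668978 to 90670035) had 10, 17, 230 and 2 reads in Dp16, or 0.0914, 0.147, 2.13 and 0.0207 CPM, against 51, 12, 54 and 21 reads in WT, or 0.513, 0.125, 0.536 and 0.182 CPM. S100a9 (chromosome 3, 90692632 to 90695721) had 23, 11, 234 and 6 reads in Dp16, or 0.210, 0.0953, 2.17 and 0.0620 CPM, against 53, 19, 116 and 20 reads in WT, or 0.534, 0.198, 1.15 and 0.174 CPM. In both genes Dp16 held the highest library, replicate 3, and the lowest, replicate 4. The log2 fold change was 0.82 for S100a8 (SE 1.12, edgeR adjusted p = 0.672) and 0.31 for S100a9 (SE 1.07, edgeR adjusted p = 0.879). Without Dp16 replicate 3 the direction turned, to -1.92 for S100a8 (SE 0.712, 95% interval -3.54 to -0.30) and -2.04 for S100a9 (SE 0.755, 95% interval -3.76 to -0.32). Before adjustment p was 0.0252 and 0.0253, and the edgeR adjusted p was 0.222 for both. Neither gene passed the threshold with or without that library.

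Ltf and Saa3 were near the limit of detection in most libraries. Ltf (chromosome 9, 111019271 to 111042767) had 7, 17, 767 and 91 reads in Dp16, or 0.0640, 0.147, 7.12 and 0.940 CPM, against 19, 39, 15 and 26 reads in WT, or 0.191, 0.406, 0.149 and 0.226 CPM. Dp16 replicates 3 and 4 were above all WT libraries, and Dp16 replicates 1 and 2 were below all of them. The log2 fold change was 3.09 (SE 1.25, 95% interval 0.29 to 5.89, unadjusted p = 0.0341, edgeR adjusted p = 0.173), and 0.64 without Dp16 replicate 3 (edgeR adjusted p = 0.695). With limma-voom and quality weights it was 0.13 (limma-voom adjusted p = 0.951). Saa3 (chromosome 7, 46711998 to 46715700) had 8, 9, 206 and 1 reads in Dp16, or 0.0731, 0.0780, 1.91 and 0.0103 CPM, against 14, 1, 8 and 4 reads in WT, or 0.141, 0.0104, 0.0793 and 0.0347 CPM. It did not pass the filter on low counts, and DESeq2 gave it no p-value. Fitted without that filter its log2 fold change was 2.96 (unadjusted p = 0.0305, edgeR adjusted p = 0.25). Apart from replicate 3, the Dp16 libraries lay at or below 0.0780 CPM, within or just under the WT range. Reg3g (chromosome 6, 78466269 to 78468872) had 0 reads in each Dp16 library and 1 read in all, in WT replicate 4. A count of 0 allows up to 3 reads, a level of up to 0.0260 to 0.0310 CPM in the Dp16 libraries.

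**Figure D2:**
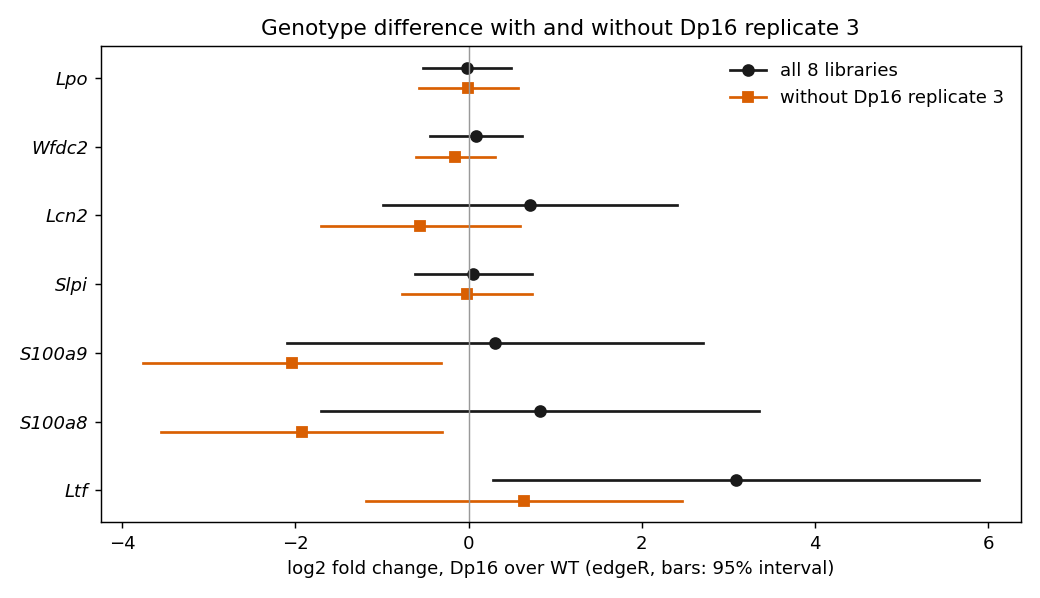
Log2 fold change of Dp16 over WT by edgeR for the 7 genes that passed the filter, with 95% intervals, over all 8 libraries (black circles) and without Dp16 replicate 3 (orange squares). Without that library Lpo and Slpi stay near 0, S100a8 is at -1.92, S100a9 at -2.04 and Ltf at 0.64, against 0.82, 0.31 and 3.09 with it.

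The 5 genes that were high in the same library were set beside their promoters. RefSeq promoter windows (GRCm38.p6) were found for all 9 genes, and the 250 bases before the start are shown for these 5 and, for contrast, for Lpo, whose level in Dp16 replicate 3 was 0.964 times the mean of the other Dp16 libraries. Each is read 5′ to 3′ on the gene's own strand. The starts are RefSeq's, while the gene spans given above are from GENCODE. For S100a9 the RefSeq start is the same as the start of the GENCODE span on its strand. The other genes shown have a RefSeq start that lies further inside the GENCODE span. Capitals mark matches, on either strand, to a C/EBP-type motif, TTNNGNAA, or to an NF-kappaB-type motif, GGGNNNNTCC, where N is any base. The windows are Ltf at chr9:111019042-111019291 (plus strand), Lcn2 at chr2:32387740-32387989 (minus), S100a8 at chr3:90668821-90669070 (plus), S100a9 at chr3:90695722-90695971 (minus), Saa3 at chr7:46715677-46715926 (minus) and Lpo at chr11:87826115-87826364 (minus).
Ltf: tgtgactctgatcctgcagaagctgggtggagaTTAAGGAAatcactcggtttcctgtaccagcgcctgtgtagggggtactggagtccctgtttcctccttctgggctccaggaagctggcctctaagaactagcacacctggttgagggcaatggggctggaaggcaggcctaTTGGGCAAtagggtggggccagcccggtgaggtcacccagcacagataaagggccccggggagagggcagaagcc
Lcn2: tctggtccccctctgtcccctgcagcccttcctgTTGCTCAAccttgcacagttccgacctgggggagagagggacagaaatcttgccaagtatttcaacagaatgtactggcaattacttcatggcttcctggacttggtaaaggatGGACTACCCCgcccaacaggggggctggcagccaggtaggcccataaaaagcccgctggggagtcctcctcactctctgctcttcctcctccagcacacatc
S100a8: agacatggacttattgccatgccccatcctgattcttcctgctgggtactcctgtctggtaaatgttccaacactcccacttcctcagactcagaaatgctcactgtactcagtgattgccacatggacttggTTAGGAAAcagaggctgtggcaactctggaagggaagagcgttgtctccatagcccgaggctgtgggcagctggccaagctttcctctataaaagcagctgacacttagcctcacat
S100a9: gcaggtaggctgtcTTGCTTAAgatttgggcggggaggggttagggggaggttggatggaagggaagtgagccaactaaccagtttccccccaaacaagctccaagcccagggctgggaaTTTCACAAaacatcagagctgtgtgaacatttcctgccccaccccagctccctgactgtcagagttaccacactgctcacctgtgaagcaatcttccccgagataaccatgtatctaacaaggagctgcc
Saa3: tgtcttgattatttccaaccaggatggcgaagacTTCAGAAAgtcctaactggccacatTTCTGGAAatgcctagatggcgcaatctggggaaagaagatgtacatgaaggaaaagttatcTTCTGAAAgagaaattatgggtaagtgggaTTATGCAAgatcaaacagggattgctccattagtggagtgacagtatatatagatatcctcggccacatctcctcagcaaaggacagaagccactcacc
Lpo: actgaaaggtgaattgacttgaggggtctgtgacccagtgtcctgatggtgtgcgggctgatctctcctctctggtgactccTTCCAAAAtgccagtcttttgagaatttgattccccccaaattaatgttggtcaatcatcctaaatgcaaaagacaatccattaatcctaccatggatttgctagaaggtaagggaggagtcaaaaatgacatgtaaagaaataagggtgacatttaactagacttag
The C/EBP-type motif was present in 8 of the 9 windows, with Reg3g the exception, and in 36.8% of all 32851 promoter windows of this length. Saa3 held 4 matches, Ltf and S100a9 held 2 each, and Lcn2, S100a8 and Lpo held 1 each. The NF-kappaB-type motif was present in 1 of the 9 windows, that of Lcn2, 102 to 93 bases before the start on the opposite strand, and in 16.5% of all windows. The motifs did not overlap each other in these windows. Both the genes that stood out in Dp16 replicate 3 and those that did not, Lpo, Slpi and Wfdc2, held the C/EBP-type letters.

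Dp16 replicate 3 was the highest of the 8 libraries in 5 of the 7 genes that passed the filter (Ltf, Lcn2, Wfdc2, S100a8 and S100a9), and it was the highest in 21.6% of all genes tested. Its level was 18.6 times the mean of the other 3 Dp16 libraries for Ltf, 6.66 times for Lcn2, 24.7 times for S100a8 and 17.7 times for S100a9, and 35.5 times for Saa3, which was not tested. A ratio of at least 5 was reached by these 4 tested genes and by 0.356% of all genes tested, 69 in number. By Dixon's ratio a Dp16 library stood apart from the other 3 in 5.66% of genes tested, and it was replicate 3 on the high side in 1.75%. By contrast the ratio was 1.71 for Wfdc2, 1.23 for Slpi and 0.964 for Lpo. The genes were picked out after these values were seen, so the shares describe the library and are no test. The library had 90790542 reads in genes, the fewest of the 8, and its TMM factor of 1.19 was the highest.

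Other genes of secreted defence and the acute phase were taken as a list of 47, of which 24 passed the filter and 9 had 0 reads in every library. By edgeR 0 were called in either direction, 14 had a positive and 10 a negative log2 fold change, and the median was 0.11, against 0.01 over all genes tested. At an unadjusted p below 0.05 there were 5 higher and 1 lower, 6 of 24, a share close to the 24.6% of all genes. DESeq2 called 2 higher and 1 lower of the 20 it gave an adjusted p, where it called 10.3% of all genes. Limma-voom called 0. Dp16 replicate 3 was the highest library in 11 of the 24.

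Among the other acute phase genes, several were high in the same library, and those named here as high were chosen after their values were seen. Saa1, a serum amyloid A of the liver acute phase, had 5, 0, 176 and 1 reads in Dp16, against 0, 2, 1 and 2 reads in WT. Saa2 had 0, 0, 39 and 0 reads in Dp16 and 0 in each WT library. Saa1 and Saa2 are near-identical copies, so reads may be lost or split between them. Serpina3n, a serine protease inhibitor induced in inflammation, had 4.23, 3.14, 37.9 and 4.15 CPM in Dp16, against 5.93, 8.66, 3.00 and 4.26 CPM in WT. Lbp, which binds bacterial lipopolysaccharide, had 2.88, 2.17, 8.70 and 2.14 CPM in Dp16, against 2.08, 1.84, 2.21 and 2.19 CPM in WT. The other 3 Dp16 libraries lay within the WT range for Serpina3n, and for Lbp replicate 1 was above it and replicates 2 and 4 within it. The log2 fold changes of Serpina3n and Lbp were 1.18 (edgeR adjusted p = 0.375) and 0.93 (edgeR adjusted p = 0.22). Not all acute phase genes of the list were far higher in Dp16 replicate 3, and these too were named after their values were seen. Hp and Cp were there 1.32 and 1.21 times the mean of the other Dp16 libraries. Orm1, Hpx and Itih4 had 4, 5 and 10 reads there, against 5, 7 and 13 in Dp16 replicate 1.

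A second pattern was seen in C3, the central complement protein, and Pigr, which carries antibodies into saliva. Pigr had 378, 337, 769 and 469 CPM in Dp16, against 294.5, 271, 126 and 199 CPM in WT, and the groups did not overlap. C3 had 60.4, 44.5, 136 and 73.0 CPM in Dp16, against 30.2, 33, 50.4 and 39.4 CPM in WT, with only Dp16 replicate 2 below the highest WT library. The log2 fold changes were 1.13 for Pigr (SE 0.317, edgeR adjusted p = 0.0943, DESeq2 adjusted p = 0.00597) and 1.04 for C3 (SE 0.317, edgeR adjusted p = 0.110, DESeq2 adjusted p = 0.0151). Without Dp16 replicate 3 the log2 fold change of C3 was 0.63 (edgeR adjusted p = 0.181). In both genes Dp16 replicates 1, 3 and 4 were above all WT libraries, which in S100a8 and S100a9 was so of replicate 3 alone. Wfdc12, an abundant relative of Slpi and Wfdc2 in the same chromosome 2 cluster, was the 1 gene of the list called lower by DESeq2 (DESeq2 adjusted p = 0.0124). It had 1483, 994, 404.5 and 1298 CPM in Dp16, against 2619, 3646, 2566 and 1242 CPM in WT, so only WT replicate 4 lay within the Dp16 range (log2 fold change -1.27, SE 0.416, edgeR adjusted p = 0.123).

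**Figure D3:**
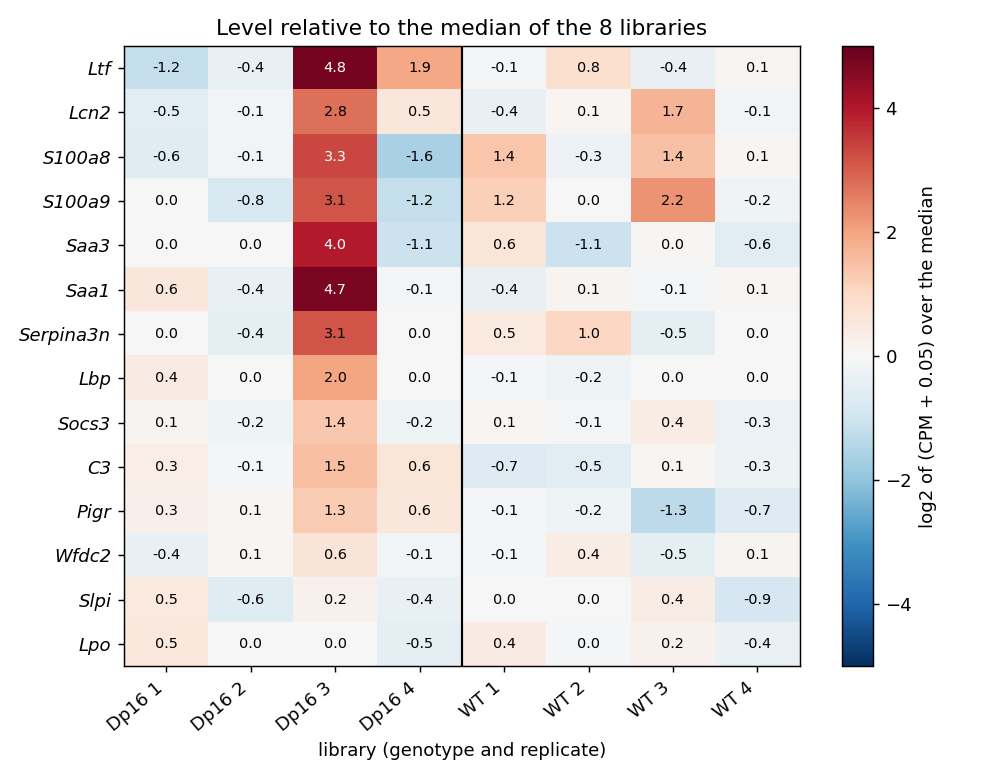
Log2 of (CPM + 0.05) over the median of the 8 libraries for 14 genes (rows) in each library (columns, Dp16 left and WT right). Dp16 replicate 3 is the reddest column from Ltf down to Pigr, WT replicate 3 is raised in Lcn2, S100a8 and S100a9, and the rows of Wfdc2, Slpi and Lpo stay pale.

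Further named genes of the list showed no difference past the threshold. Lyz2, the lysozyme of macrophages, averaged 67.9 ± 9.62 CPM in Dp16 and 58.7 ± 10.7 CPM in WT, and Ccl28, a mucosal chemokine with antimicrobial activity, 43.5 ± 17.7 CPM in Dp16 and 53.1 ± 10.5 CPM in WT (SD, n = 4 each). Pglyrp1, a peptidoglycan-binding protein, had 1.06 to 3.15 CPM in Dp16 and 0.946 to 4.95 CPM in WT. Bpifa2, a salivary secretory protein, had 15.3 to 177 CPM in Dp16 and 4.23 to 229 CPM in WT, so libraries of a group differed more than the groups. Their edgeR adjusted p-values were 0.392 (Lyz2), 0.501 (Ccl28), 0.909 (Pglyrp1) and 0.890 (Bpifa2). Dmbt1, a salivary agglutinin, had 1 read in all, in Dp16 replicate 2. Camp, the cathelicidin of neutrophil granules, had 2 reads in Dp16 replicate 3 and 0 elsewhere, and Reg3b had 0 in all libraries.

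WT replicate 3, the WT library with the highest Lcn2, stood apart in mucous products. Dcpp1, named for demilune and parotid cells, had 0.347, 0.459, 0.882 and 2.55 CPM in Dp16, against 0.524, 0.666, 22.3 and 0.382 CPM in WT. Muc19, a gel-forming mucin known from the mouse sublingual gland, had 0.265, 0.416, 2.15 and 13.2 CPM in Dp16, against 4.32, 0.312, 104 and 0.338 CPM in WT. Muc19 was chosen after its values were seen. Both were highest in WT replicate 3 and next highest in Dp16 replicate 4, while Lcn2 was 46.6 CPM and 20.9 CPM in those libraries. The part of this in the Lcn2 level was not tested.

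Cells that could bring these transcripts in were measured through their markers, and in whole gland RNA more cells of a type and more RNA per cell cannot be told apart. Of 16 neutrophil markers 4 passed the filter, all 4 highest in Dp16 replicate 3, and 0 were called by edgeR, DESeq2 or limma-voom. By edgeR 1 of the 4 had an unadjusted p below 0.05, a share close to the 24.6% of all genes tested. The summed CPM of the 16 was 5.87, 4.78, 18.1 and 5.87 in Dp16 replicates 1 to 4 and 4.17 to 5.63 in WT. Most of the sum in Dp16 replicate 3 came from Itgam. Itgam had 3.00, 2.29, 10.9 and 3.33 CPM in Dp16 and 1.70 to 3.16 CPM in WT. The 9 markers that define neutrophils and their granules (Ly6g, Ngp, Camp, Mpo, Elane, Ctsg, Prtn3, Mmp8 and Retnlg) together had 10, 1, 63 and 6 reads in Dp16 and 7 to 12 reads in WT. In Dp16 replicate 3, Mmp8 gave 35 of these reads, Retnlg 14, Prtn3 5, Ngp 4, Ctsg 3 and Camp 2. Ly6g, Mpo and Elane were at 0 there, but had at most 5, 4 and 1 reads in any library, too few to tell libraries apart. Elane and Ctsg, the proteases that Slpi inhibits, had at most 1 and 6 reads in any library.

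Macrophage markers were raised in the same library. The summed CPM of 10 of them was 266, 239, 440 and 288 in Dp16 and 272 to 299.5 in WT, with 8 of the 10 highest in Dp16 replicate 3, 0 called by edgeR, DESeq2 or limma-voom and 0 at an unadjusted p below 0.05 by edgeR. T and B cell markers followed another order. Their summed CPM, over 12 genes, was 24.7, 8.31, 36.9 and 16.7 in Dp16 and 4.36 to 7.52 in WT, and 12 of 12 were called higher by DESeq2, 2 by limma-voom and 0 by edgeR, where all 12 had an unadjusted p below 0.05. Over all genes, DESeq2 called 5.89% higher, limma-voom called 2.05% in either direction, and 24.6% had an unadjusted p below 0.05. Dp16 replicate 1, with the second highest lymphocyte sum, had 9.83 CPM of Lcn2, 0.0640 CPM of Ltf and 0.0914 CPM of S100a8. Erythroid genes had a summed 84.5 to 153 CPM in Dp16, highest in replicate 3, and 78.0 to 128 CPM in WT. Of 6 adipocyte genes, of interest because Saa3 is made in fat, 5 had a negative log2 fold change, the median was -1.68 and 3 (Adipoq, Cidec and Plin1) had an unadjusted p below 0.05, while 0 were called by edgeR, DESeq2 or limma-voom. Their levels in Dp16 replicate 3 were 0.0278 CPM (Adipoq), 0.00928 CPM (Cidec) and 0.00928 CPM (Plin1), the lowest of the 8 libraries. These were 3, 1 and 1 reads, no more than the 3 reads that a count of 0 allows. Lep was lowest in WT replicate 2 and Cfd in Dp16 replicate 1. The summed level of the 6, 2.26 to 4.79 CPM in Dp16 and 3.00 to 5.71 CPM in WT, came mostly from Plin4, which had 1.85 to 4.65 CPM in Dp16 and 2.36 to 3.27 CPM in WT. Duct markers, of 11 genes, had a summed 17520 to 46510 CPM in Dp16, lowest in replicate 3, and 31520 to 66830 CPM in WT. This sum came mostly from Egf, which had 15700 to 42400 CPM in Dp16 and 28300 to 61700 CPM in WT. Of the 11, 1 gene, Scnn1a, was highest of the 8 libraries in Dp16 replicate 3. EdgeR called 1 of the 11 lower, the kallikrein gene Klk1 (log2 fold change -0.70, edgeR adjusted p = 0.0358), and 0.155% of all genes. DESeq2, which called 4.37% of all genes lower, and limma-voom called Klk1 lower too (DESeq2 adjusted p = 1.97e-09, limma-voom adjusted p = 0.0169). The part of these cell types in the levels of the defence genes was not tested.

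**Figure D4:**
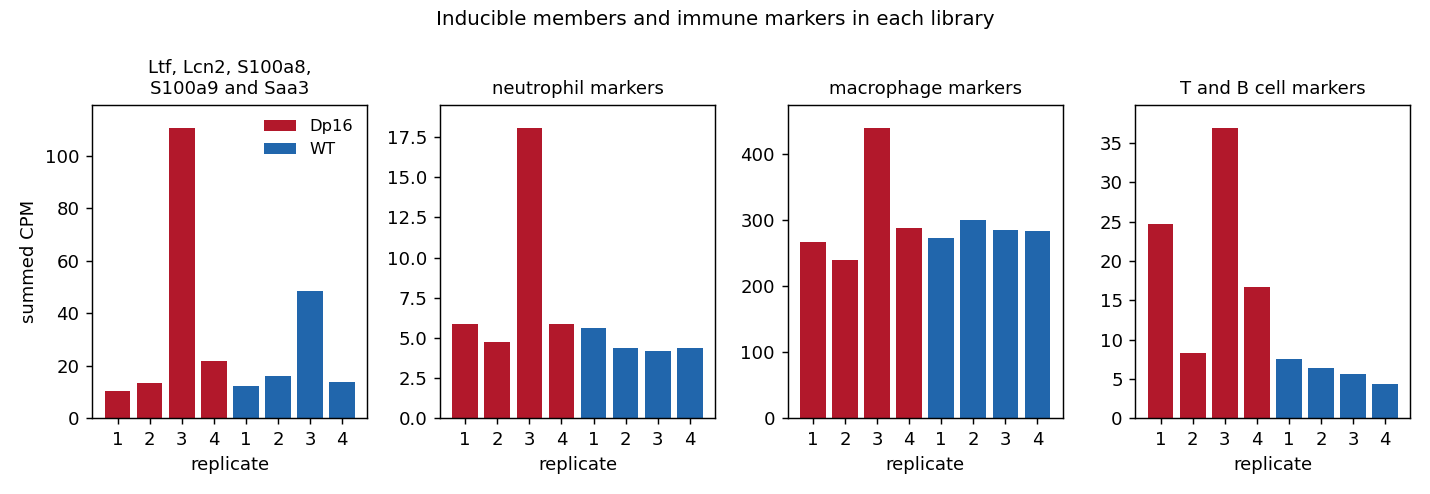
Summed CPM in each library of Ltf, Lcn2, S100a8, S100a9 and Saa3, and of 16 neutrophil, 10 macrophage and 12 T and B cell markers, with Dp16 replicates in red on the left and WT replicates in blue on the right of each panel. All 4 panels are highest in Dp16 replicate 3; the summed defence genes are next highest in WT replicate 3, and the T and B cell markers in Dp16 replicates 1 and 4.

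Partners and inducers of the defence proteins were compared last, in lists of 17 and 19 genes. Of these, 14 and 15 passed the filter, and edgeR called 0 in either direction, with medians of 0.07 and -0.03. At an unadjusted p below 0.05 there were 3 in each list, shares no higher than the 24.6% of all genes. DESeq2 called 1 in both lists together, Tnf, which was higher, where it called 10.3% of all genes, and limma-voom called 0. Tnf, named after its values were seen, a cytokine that activates NF-kappaB, had 0.722, 0.295, 1.81 and 0.610 CPM in Dp16, against 0.151, 0.354, 0.288 and 0.312 CPM in WT (log2 fold change 1.63, SE 0.527, edgeR adjusted p = 0.120, DESeq2 adjusted p = 0.0233). Without Dp16 replicate 3 its log2 fold change was 0.97 (edgeR adjusted p = 0.257). Socs3, a feedback inhibitor induced by interleukin 6 family cytokines, had 1.70, 1.33, 4.03 and 1.30 CPM in Dp16, against 1.64, 1.44, 2.01 and 1.25 CPM in WT. Again the highest libraries were Dp16 replicate 3 and then WT replicate 3 (log2 fold change 0.40, edgeR adjusted p = 0.520). The cytokine genes Il17a and Il22 had 0 reads throughout, and Il6 had at most 8.

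The peroxide source of the lactoperoxidase system did not differ past the threshold either. Duox2 averaged 56.0 ± 15.3 CPM in Dp16 and 63.0 ± 21.8 CPM in WT, and its maturation factor Duoxa2 14.3 ± 2.38 CPM in Dp16 and 16.1 ± 5.48 CPM in WT (SD, n = 4 each). Duox1 averaged 0.620 ± 0.204 CPM in Dp16 and 0.628 ± 0.231 CPM in WT. The log2 fold changes were -0.17 for Duox2 and Duoxa2 and -0.02 for Duox1 (edgeR adjusted p = 0.736, 0.698 and 0.978). The receptors were likewise not called. Slc22a17, which takes up lipocalin 2, averaged 7.24 ± 1.02 CPM in Dp16 and 7.72 ± 0.685 CPM in WT, and Tlr4, a receptor of calprotectin, 33.4 ± 6.94 CPM in Dp16 and 30.5 ± 5.98 CPM in WT. Of the transcription factors, Cebpb (log2 fold change -0.26), Cebpd (-0.51), Stat3 (-0.07) and the NF-kappaB cofactor Nfkbiz (-0.25) had edgeR adjusted p-values of 0.461, 0.290, 0.695 and 0.471. The receptor genes Il6ra (0.43) and Il17ra (0.26) had 0.322 and 0.232.

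The genes whose levels ran most like each defence gene were found by Pearson's r of log2 CPM over the 8 libraries, among 14424 other protein-coding genes. The genes are compared within the same libraries, so depth and composition are shared, and the values are descriptions only. The genes were picked for the highest r over all 8 libraries, so their r without Dp16 replicate 3 is no independent check. For Lpo they were Xntrpc (r = 0.975), Dtd2 (0.951) and Cds1 (0.934), and for Slpi they were Zbtb21 (0.970), Mettl8 (0.968) and Pltp (0.962). Without Dp16 replicate 3 these values were 0.977, 0.952 and 0.934 for Lpo and 0.971, 0.966 and 0.972 for Slpi. For Wfdc2 they were Tprg (0.964), Slc39a10 (0.931) and Prelid3a (0.930), with 0.937, 0.889 and 0.871 without that library. For Lcn2 they were Ranbp10 (0.95), Gbp2b (0.939) and Hist1h2bl (0.931), with 0.925, 0.839 and 0.846 without that library. For Ltf they were Ecm1 (0.964), Cdt1 (0.958) and Ms4a4d (0.953), for S100a8 Stc2 (0.949), Mcl1 (0.942) and Zmiz1 (0.940), and for S100a9 Dlg5 (0.987), Tmem184b (0.973) and Snrnp25 (0.964). Without Dp16 replicate 3 the values were 0.866, 0.833 and 0.91 for Ltf and 0.892, 0.917 and 0.935 for S100a8. Those of S100a9 were then 0.976, 0.988 and 0.938. Some of the genes named were at low levels, with a mean of 0.225 CPM (Xntrpc), 0.297 CPM (Tprg), 0.114 CPM (Prelid3a) and 0.321 CPM (Hist1h2bl).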

How the data were processed

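RNA was measured in 8 libraries. A stranded kit for total RNA was used after removal of ribosomal RNA, per the labels' protocols. The deposited values are read counts per Ensembl gene, whole numbers not normalized. Tools listed in the submitters' processing notes are STAR, HTSeq, FastQC and DESeq2, with GRCm38 as build. Versions, annotation release and strand setting are not stated there, so reads of overlapping antisense genes may not be separated. Such kits keep unspliced RNA.

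Of 54838 genes, 54723 were matched to GENCODE M21 (GRCm38) for names and coordinates. The 5 rows naming no gene were left out. In R 4.3.3, edgeR 4.0.16 (default filter, TMM, quasi-likelihood F-test, Dp16 against WT, no covariate) was fitted to all genes that passed, with Benjamini-Hochberg adjustment across these genes and a threshold of 0.05. Intervals are 95% from the same fit. No 2 libraries agreed within sampling noise (the smallest chi-square over its degrees of freedom, among all pairs, was 83.7). Promoters are RefSeq's. Alternatives were DESeq2 1.42.0, limma-voom (limma 3.58.1) with quality weights, other scalings and filters, an adjusted p below 0.10, a replicate block and each library left out. Both replicate 3 libraries were also left out, a choice made after seeing the data. The fits were tested on simulated data. The 9 genes and all lists were chosen with earlier results of these data known. The named genes were the 9, 12 other defence genes and 14 partners and inducers set by name, any gene called, and the 3 genes most like each; others are said to be chosen later.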

Additional observations from a re-analysis of the deposited data

Results flagged for a closer look

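In groups of 4, a library was picked out where its gap to the nearest other made up more of the group's range than Dixon's 95% critical value, which chance gives in about 1 in 20 groups. Over all genes tested 5.66% had such a Dp16 library, and in 1.75% it was replicate 3 as the high one. Among the defence genes, Dp16 replicate 3 was picked out for Ltf at 7.12 CPM, Lcn2 at 97.3 CPM, S100a8 at 2.13 CPM, S100a9 at 2.17 CPM and Saa3 at 1.91 CPM. The next Dp16 libraries were at 0.940, 20.9, 0.147, 0.210 and 0.0780 CPM. WT replicate 3 was picked out for Lcn2 at 46.6 CPM, with the next WT library at 15.5 CPM.

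Among the other acute phase genes, Dp16 replicate 3 was picked out for Serpina3n at 37.9 CPM, Lbp at 8.70 CPM, Saa1 at 1.63 CPM and Saa2 at 0.362 CPM, and among the inducers and their targets for Socs3 at 4.03 CPM. WT replicate 3 was picked out for Dcpp1 at 22.3 CPM and Muc19 at 104 CPM, and Dp16 replicate 4 for Muc19 at 13.2 CPM. For Duox2, WT replicate 4 was low, at 30.7 CPM against 70.6 CPM in the next WT library. What sets these libraries apart was not tested.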

How the results depend on the processing

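Of the 9 defence genes, 0 were called under every alternative run. The count over all genes, 121 of which 75.2% were higher, moved to 1996 with DESeq2 (57.4% higher), 223 with no expression filter, 396 with limma-voom (62.4% higher), 1308 at an adjusted p below 0.10 (57.0% higher) and 0 with both replicate 3 libraries left out, and ranged from 0 to 446 with each library left out. The other defence genes called numbered 3 with DESeq2 and 1 at an adjusted p below 0.10, and the partners and inducers 1 with DESeq2; the cause was not tested. Same-numbered libraries deviated together with r of 0.0777 to 0.191, and differently numbered ones with r of -0.225 to 0.141. The labels do not state that the numbers pair the samples, and these overlapping values cannot decide it. The WT library titled 4 also carries the number 5 in its library name, and the block used the title. The replicate block gave 776 calls over all genes (46.4% higher) and 1 other defence gene (C3, log2 fold change 0.94, edgeR adjusted p = 0.0429), with reversed values of -0.47 for S100a8, -0.59 for S100a9 and 0.0706 for Bpifa2.

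Of 537 single-gene values over 32 results, 485 kept direction and side of the threshold, 6 newly passed it and 46 reversed. With limma-voom the reversed log2 fold changes were -0.12 (Lcn2), 0.10 (Lpo), -0.10 (Wfdc2), -1.15 (S100a8), -0.86 (S100a9), 0.73 (Bpifa2) and -0.0218 (Tlr4). With the stricter filter Lpo was at 0.0086. With both replicate 3 libraries left out they were 0.0354 (Lpo), -0.29 (Wfdc2), -1.62 (S100a8), -1.28 (S100a9), 1.09 (Dcpp1), -0.71 (Serpina3n), 1.48 (Muc19), 0.0335 (Slc22a17) and -0.0485 (Tlr4). With each library left out in turn, ranges that crossed 0 were -0.56 to 1.40 (Lcn2), -0.22 to 0.11 (Lpo), -0.16 to 0.21 (Slpi), -0.15 to 0.23 (Wfdc2), -1.92 to 1.2 (S100a8), -2.04 to 1.06 (S100a9), -0.78 to 0.34 (Bpifa2), -0.14 to 0.89 (Pglyrp1), -3.41 to 1.00 (Dcpp1), -0.51 to 1.5 (Serpina3n), -4.87 to 1.26 (Muc19), -0.19 to 0.19 (Duox1), -0.14 to 0.00049 (Stat3) and -0.13 to 0.56 (Socs3). Ltf ranged from 0.64 to 3.49, and was 0.13 with limma-voom, 1.24 with the replicate block and 0.47 with both replicate 3 libraries left out. Counts of a few reads limit Saa3 and Reg3g.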
